A study of Mus musculus with 4 samples.

Results

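The major urinary protein genes Mup2, Mup5, Mup6, Mup9, Mup17, Mup18, Mup19 and Mup20 were represented by 10 array probes, and are 8 of 36282 genes or transcripts on the array. They were taken from 55681 non-control probes as every probe whose array name was one of these symbols, or whose listed RefSeq entry now has that symbol. The group was chosen on the measured differences of this same comparison, which had put several members among the largest falls, so the members' differences are a description and were not tested. Testing needed a signal well above background on 2 or more of the 4 arrays, which 9 of the 10 probes had, as did 22642 probes in all.

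Cells of the submandibular gland, a salivary gland, came from C57BL/6 mice of 8 to 10 weeks, were sorted by flow cytometry, and their RNA was measured. The 2 groups were submandibular gland stem cells, with 2 arrays, and non-stem cell epithelia, also with 2 arrays. No treatment, transgene or mutation is named for either group. The sources used here do not give the sort antigens, the sex of the mice or the number of mice per sample. Nor do they say whether replicates were separate animals or separate sorts, so the p-values below cover the spread of these 4 samples alone, and that spread may be technical.

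Major urinary proteins are small secreted lipocalins, barrel-shaped proteins that carry volatile pheromones and slow their release. In mice their genes form a cluster of near-identical copies and pseudogenes on chromosome 4. The main source is the liver, where growth hormone pulses, androgen, thyroid hormone and glucocorticoid raise their transcription, and the proteins pass into the urine. Salivary, lachrymal and mammary glands also make some of them, and Mup20 encodes darcin, a male pheromone protein.

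Because the genes are so alike, the probe sequences are shown first. Each probe is 60 bases long, and no sequence is repeated among the member probes. Of the 19 probes named or described as major urinary protein, counting 9 others beside the members, 13 of the 171 pairs matched over at least 40 bases at their best ungapped alignment. A member stood in 7 of those pairs. The first set is the Mup6 probe (chr4:60018835-60018894, mm9, listed on the plus strand) with the 4 probes most like it, capitals marking bases that differ from the Mup6 probe.
Mup6: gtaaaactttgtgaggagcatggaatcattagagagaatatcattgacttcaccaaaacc
Mup3: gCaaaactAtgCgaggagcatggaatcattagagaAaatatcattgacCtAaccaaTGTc
TC1781567: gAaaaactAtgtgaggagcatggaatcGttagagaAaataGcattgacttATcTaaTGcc
ENSMUST00000098035, probe A_55_P2033326: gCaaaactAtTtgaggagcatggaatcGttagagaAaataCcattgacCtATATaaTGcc
ENSMUST00000098035, probe A_55_P2033321: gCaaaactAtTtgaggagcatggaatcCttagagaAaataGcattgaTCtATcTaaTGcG

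The Mup3 probe shared 51 of its 60 bases with the Mup6 probe, and the other 3 shared 50, 47 and 46. The second set pairs a Mup20 probe, A_55_P2051486 (chr4:61713671-61713730, mm9, listed on the minus strand), with the probe for the pseudogene Mup-ps21, which matched it at 54 of 60 bases. Capitals mark bases that differ from the Mup20 probe.
Mup20: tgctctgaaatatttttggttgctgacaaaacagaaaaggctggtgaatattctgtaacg
Mup-ps21: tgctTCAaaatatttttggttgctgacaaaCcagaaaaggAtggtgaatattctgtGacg

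A 30-base stretch was common, with few differences, to 5 probes: the Mup19 probe (chr4:61439496-61439555, mm9, minus strand), the other Mup20 probe, A_55_P2063654 (chr4:61711407-61711466, minus strand), a Mup4 probe, and 2 probes inside the cluster that carry no Mup name. Capitals mark positions that are not the same in all 5.
Mup19: ttctgtgatctgcAttccatcCtgtctCac
Mup20, probe A_55_P2063654: ttctgtgatctgcTttccatcGtgtctTac
Mup4, probe A_55_P2010093: ttctgtgatctgcTttccatcCtgtctCac
ENSMUST00000153865 and A_55_P2144090: ttctgtgatctgcTttccatcAtgtctCac

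The Mup17 and Mup18 probes overlapped by 35 bases with no difference, of which 30 are printed as the shared run. The Mup5 probe begins with ATG, in capitals, and the Mup9 probe A_55_P1979904 is printed with no capitals. The Mup5 probe overlapped Mup4 probe A_55_P2007816 over 25 bases, of which 22 were the same. The Mup9 probe A_55_P1979904 had no overlap of at least 20 bases at 85% identity with another Mup probe, and 29 matching bases at best.
Mup17 and Mup18: ctaggatacctcatcaagaatcaaagactt
Mup5: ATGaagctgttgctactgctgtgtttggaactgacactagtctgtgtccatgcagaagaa
Mup9: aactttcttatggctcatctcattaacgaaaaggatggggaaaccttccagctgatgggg

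For 6 of the 10 member probes, the accessions the array lists (at most 4 per probe) now belong to more than 1 Mup gene. The Mup6 probe is also listed for Mup4, and the Mup19 probe for Mup1 and Mup17. The Mup18 probe is also listed for Mup1 and Mup19, the Mup17 probe for Mup11 and the Mup2 probe for Mup1. Probes with large and small differences, such as those of Mup19 and Mup18, are thus listed for some of the same genes. The Mup9 probe A_55_P1979904 is listed for Mup1, Mup2 and Mup19, and its symbol is the array's own. Both Mup20 probes and the Mup5 probe were listed for 1 current gene each. Gene names below are therefore names of probes, and the signals of near-identical transcripts on a probe cannot be told apart.

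**Figure D1:**
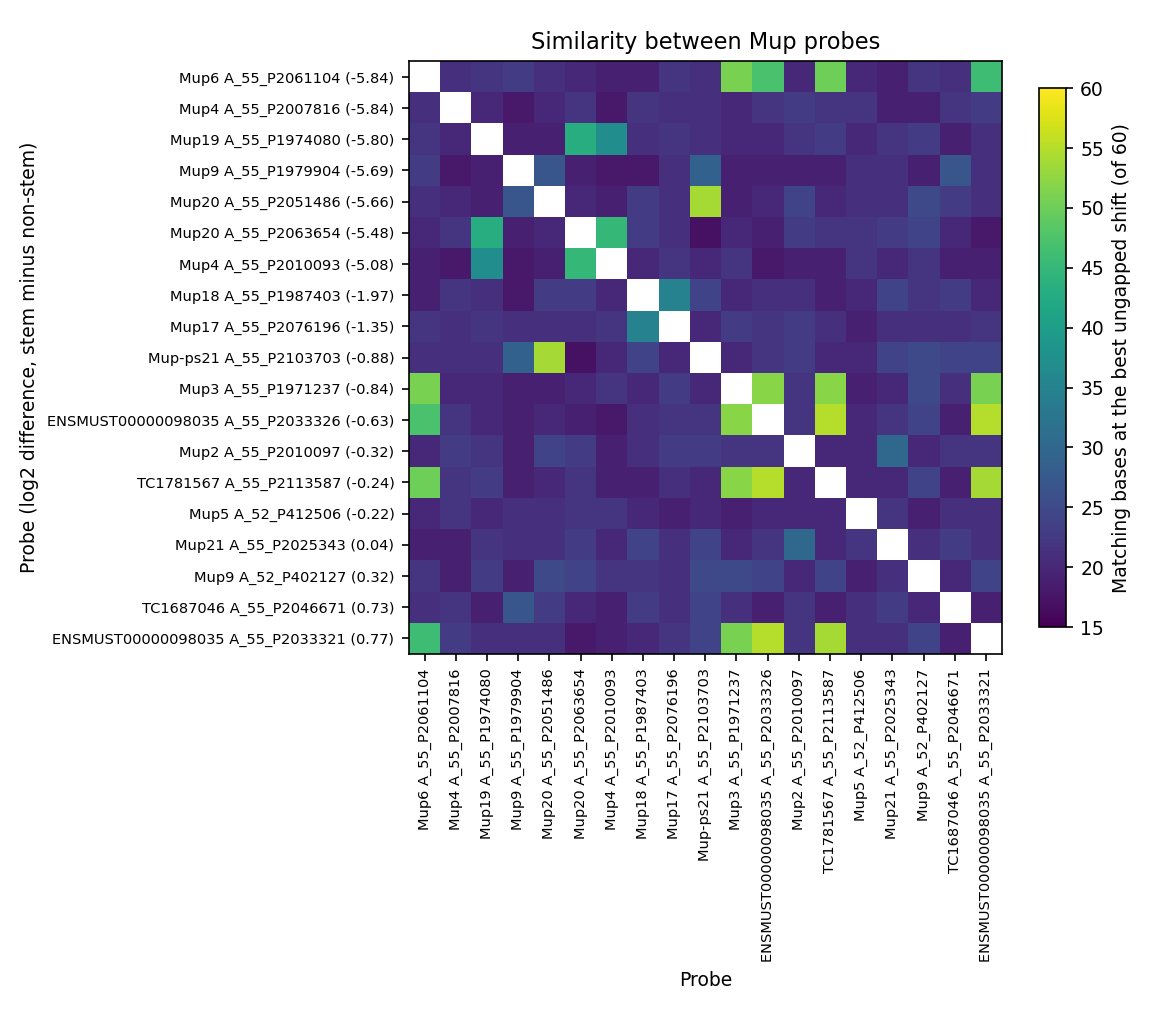
Matching bases between each pair of the 19 Mup probes, at the ungapped alignment with most matches, out of 60 (colour scale); probes are ordered by log2 difference, stem cells minus non-stem cell epithelia, given in brackets. The bright cells join Mup6 with Mup3, TC1781567 and ENSMUST00000098035, and Mup20 with Mup-ps21, pairs whose differences lie far apart. Of these partners only TC1781567 was well above background on all 4 arrays. All of them, TC1781567 included, were too faint to show a fall of the size seen for Mup6 or Mup20. Other bright cells, at 51 to 55 bases, join Mup3, TC1781567 and the ENSMUST00000098035 probes with one another, whose differences lie between -0.84 and 0.77. Mup19, Mup20 probe A_55_P2063654 and Mup4 probe A_55_P2010093 are both alike and close in difference.

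Of the tested members, 5 probes for 4 genes (Mup6, Mup19, Mup9 and Mup20) were lower in stem cells by 44.6-fold to 57.2-fold. The other 4 tested probes, for Mup18, Mup17, Mup2 and Mup5, had log2 differences between -1.97 and -0.22. Levels are log2 of the background-corrected spot intensity relative to the array's 75th percentile, so 0 is the level of a probe at that percentile. A level is comparable between arrays for a given probe, not between probes. In sorted bulk samples, fewer cells of a type that makes the RNA and less RNA per cell cannot be told apart.

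The Mup6 probe read -0.95 and -0.71 on the stem cell arrays, against 5.03 and 4.99 on the non-stem arrays. Before scaling these were intensities of 17.6 and 29.9 against 2756 and 2259. Both stem cell arrays were low and both non-stem arrays high, with a difference of -5.84 ± 0.17 (SE from limma, n = 2 per group), or 57.2-fold.

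The Mup19 probe read 0.72 and 0.77 in stem cells, against 6.53 and 6.56 in non-stem cell epithelia, a difference of -5.80 ± 0.15, or 55.7-fold. The Mup9 probe A_55_P1979904 (chr4:60432618-60432677, mm9, minus strand) read -0.93 and -1.44 against 4.39 and 4.63, a difference of -5.69 ± 0.23, or 51.7-fold. Neither probe had overlapping groups, and replicates within a group lay far closer together than the groups.

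Darcin's gene had 2 probes of different sequence, and both were far lower in stem cells. Probe A_55_P2051486 of Mup20 read 0.07 and -0.06 in stem cells, against 5.57 and 5.76 in non-stem cell epithelia, a difference of -5.66 ± 0.16, or 50.5-fold. Probe A_55_P2063654 read 1.28 and 1.30 against 6.77 and 6.77, a difference of -5.48 ± 0.15, or 44.6-fold. It matched Mup4 probe A_55_P2010093 at 45 of 52 overlapping bases, and whether Mup4 transcripts add to its signal was not tested. The 5 differences ran from -5.84 to -5.48 with SEs of 0.15 to 0.23, so neighbours in that order did not differ beyond their error.

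The remaining members had smaller measured differences, but their probes left little room for a fall. Non-stem means were 0.11 for Mup17, -0.18 for Mup5, -1.70 for Mup2 and -2.17 for Mup18. The lowest levels counted as well above background on the stem cell arrays were -1.81 and -3.10. A fall of the size seen for Mup6 could therefore not have been measured with these probes. The Mup17 probe (chr4:61253019-61253078, mm9, minus strand) read -1.44 and -1.05 in stem cells, against 0.03 and 0.19 in non-stem cell epithelia, a difference of -1.35 ± 0.20, or 2.56-fold. The Mup18 probe (chr4:61331294-61331353, minus strand, named LOC100048884 on the array) read -3.87 and -4.41 against -2.09 and -2.25. It passed the filter only through the non-stem arrays and was not well above background on either stem cell array, so its difference of -1.97 ± 0.23 is a measured value only, and its bound is at least 1.22-fold lower in stem cells. For a bound, the level on each array of the faint group is raised, where needed, to the lowest level counted as well above background there, and the raised levels are averaged. For Mup18 that lowest level was -1.81 on stem replicate 1, above the non-stem mean of -2.17, so that array alone sets no bound. All bounds given here are for the reported background correction and need not hold under another.

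The Mup5 probe (chr4:61496097-61496156, mm9, minus strand) read -0.48 and -0.33 in stem cells, against -0.12 and -0.25 in non-stem cell epithelia, a difference of -0.22 ± 0.16. Its groups did not overlap, but they lay close together. The Mup2 probe (chr4:60149741-60149800, minus strand) read -2.39 and -1.65 against -1.54 and -1.86, a difference of -0.32 ± 0.29 with overlapping groups, and it was not well above background on the first stem cell array. The other Mup9 probe, A_52_P402127 (chr4:60432060-60432119, minus strand), was well above background on 0 arrays, with intensities from 2.34 to 3.87, and was not tested. The 2 probes named Mup9 share a listed accession but only 19 matching bases, and they did not give the same picture.

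**Figure D2:**
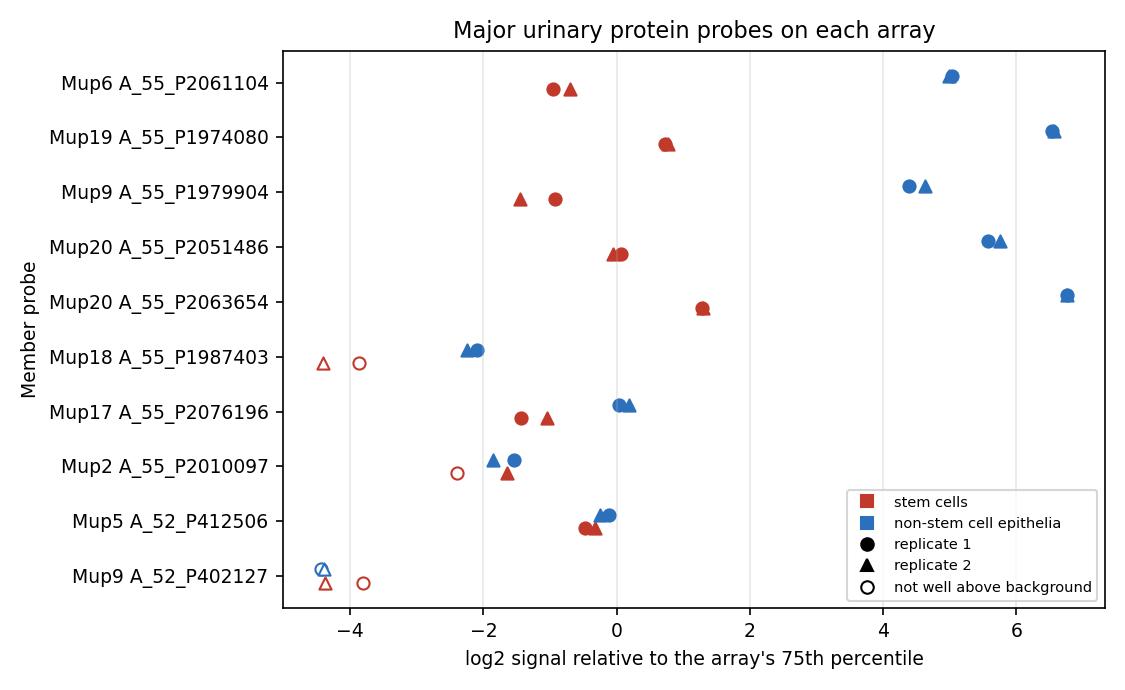
Level of each member probe on each array as log2 signal relative to the array's 75th percentile (x axis), with red for stem cells, blue for non-stem cell epithelia, circles for replicate 1, triangles for replicate 2 and open symbols where the probe was not well above background. The groups of the upper 5 probes are parted by 5.48 to 5.84, while Mup2 overlaps and Mup5 nearly does.

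Of the 9 tested member probes, 8 were lower in stem cells with no overlap between groups, against 36.0% of all tested probes, and 0 were higher. Lower by at least 1 on the log2 scale were 7 of the 9, against 10.7%, and lower by at least 5 were 5 of the 9, against 0.216%, which is 49 probes. The median difference over the 9 was -5.48, and over all tested probes -0.01. These counts describe a group chosen for such differences, and nothing is read from them. Ordered by difference from the lowest, the 5 probes stood at positions 23, 25, 29, 30 and 32 of 22642, Mup18 at 703, Mup17 at 1443, Mup2 at 7174 and Mup5 at 8375.

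**Figure D3:**
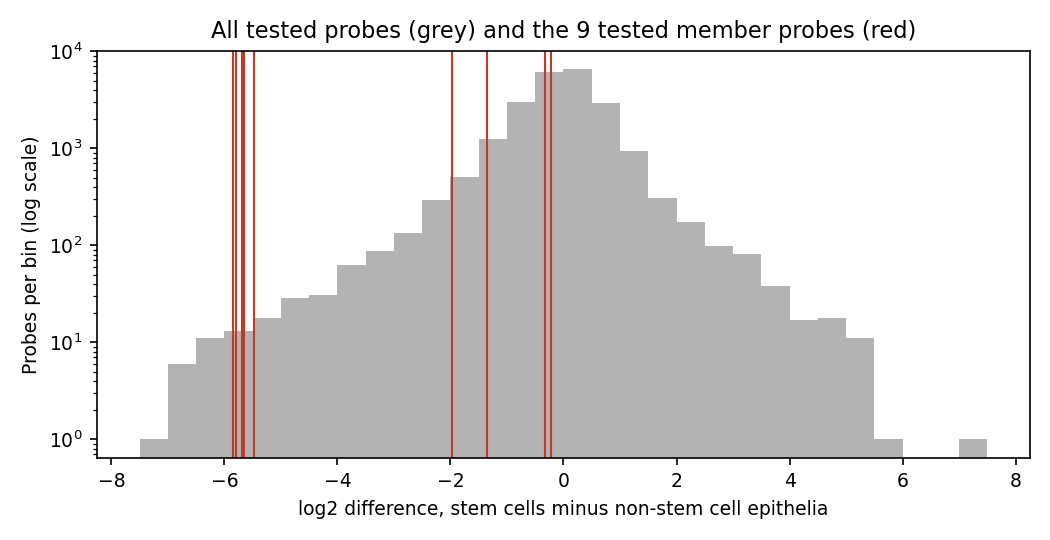
Number of tested probes (y axis, log scale) by log2 difference, stem cells minus non-stem cell epithelia (x axis), with a red line at each of the 9 tested member probes. The 5 leftmost lines stand between -5.84 and -5.48 in the sparse left tail and 2 within 1 of zero.

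The background correction moved the values of most members. Under normexp, a model-based correction that holds faint spots further from zero, the differences became -4.44 for Mup6, -5.29 for Mup19, -4.08 for Mup9 probe A_55_P1979904, and -4.90 and -5.31 for the Mup20 probes. Under the same correction the Mup17 difference was -0.43. The Mup18 difference turned to 0.092 and the Mup2 difference to 0.25, so neither has a settled direction. The 5 large differences kept their sign and were -4.08 or lower under every setting run, and Mup5 stayed between -0.29 and -0.06.

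**Figure D4:**
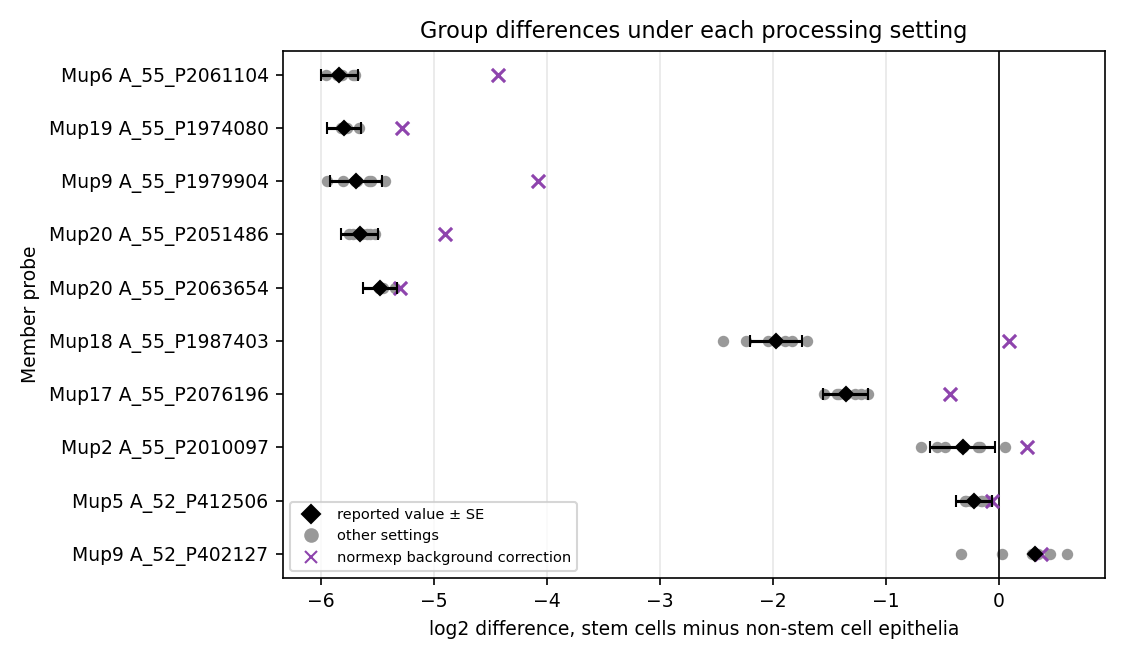
Log2 difference of each member probe, stem cells minus non-stem cell epithelia (x axis), as reported with its limma SE where it was tested (black), under the other settings (grey) and under normexp (purple crosses). The 5 upper probes stay between -5.96 and -4.08, and the crosses for Mup18 and Mup2 lie right of zero at 0.092 and 0.25.

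Other probes of the family gave both large and small differences. The 2 probes for Mup4, a family member known from nasal and lachrymal glands, were lower in stem cells. Mup4 probe A_55_P2007816 had intensities of 16.6 and 18.8 in stem cells, against 1991 and 1849 in non-stem cell epithelia, a log2 difference of -5.84 ± 0.19. Mup4 probe A_55_P2010093 had 407 and 701 against 37960 and 31205, a difference of -5.08 ± 0.17, or 33.9-fold.

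Of the 4 probes whose sequence lies closest to Mup6, 1 was measured on all 4 arrays. That probe, TC1781567, had intensities of 19.7 and 32.2 in stem cells, against 54.9 and 58.1 in non-stem cell epithelia, a log2 difference of -0.24 with overlapping groups. Mup3 had 4.31 and 3.74 against 12.5 and 14.8 and was well above background on 1 array only. ENSMUST00000098035 probe A_55_P2033326 had 6.53 and 6.30 against 22.0 and 16.0 and was well above background on neither stem cell array. The non-stem mean of TC1781567 was -0.45, and the lowest levels counted as well above background on the stem cell arrays were -1.81 and -3.10. For probes this near background, TC1781567 included, a difference of the size seen for Mup6 could not have been measured. In the same way Mup-ps21, alike to Mup20 at 54 bases, was well above background on 0 arrays, as were Mup21, TC1687046 and ENSMUST00000098035 probe A_55_P2033321.

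The cluster spans 1839 kb between its outermost Mup probes on mm9. Inside it stood 6 probes without a Mup name, of which 4 were tested, and all 4 were lower in stem cells with no overlap, as were 36.0% of all tested probes. Probe A_55_P2035029 (chr4:61195710-61195769, listed on the plus strand) had intensities of 19.3 and 28.6 in stem cells, against 2289 and 2158 in non-stem cell epithelia, a log2 difference of -5.64 ± 0.16. It matched no Mup probe at more than 32 bases. Probe A_55_P2144090 (chr4:60257760-60257819) had 193 and 353 against 14119 and 11528, a difference of -4.69 ± 0.18, and ENSMUST00000153865 (chr4:61462131-61462190) had 294 and 477 against 19801 and 16464, a difference of -4.67 ± 0.16. Both carry the 30-base stretch printed above and match Mup20 probe A_55_P2063654 at 47 and 49 of 55 overlapping bases. The far fainter ENSMUST00000098035 probes are also listed for transcript ENSMUST00000153865, so probes listed for it did not give the same picture. The fourth, ENSMUST00000156693 (chr4:60533978-60534037), passed the filter only through the non-stem arrays and was at least 2.22-fold lower in stem cells.

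**Figure D5:**
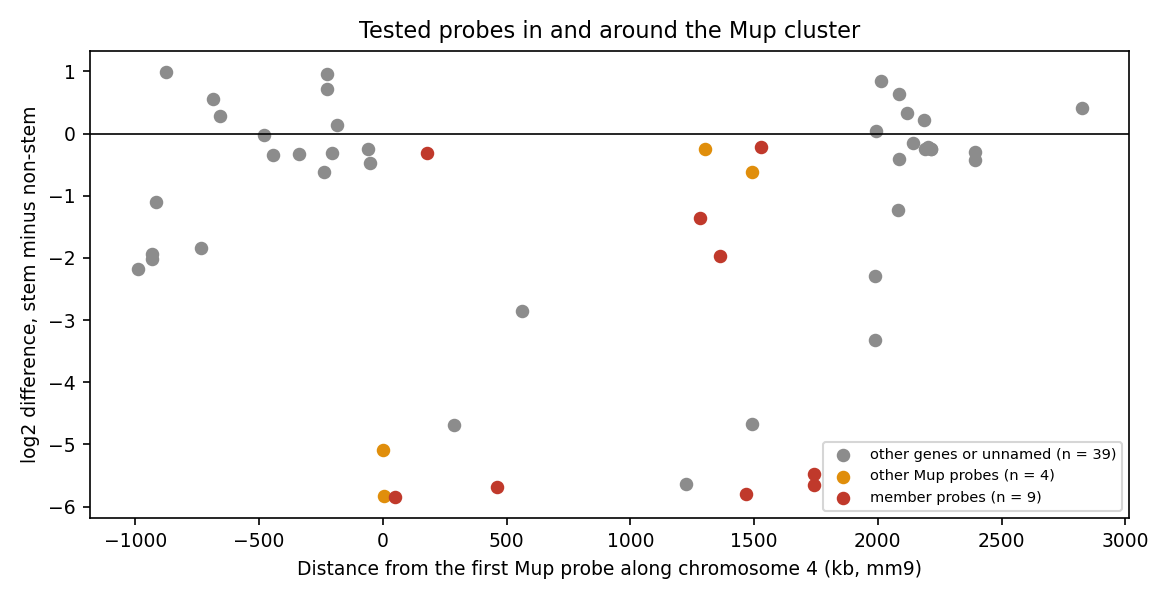
Log2 difference, stem cells minus non-stem cell epithelia (y axis), of each tested probe against its distance along chromosome 4 from the first Mup probe (x axis, kb, mm9), with 9 member probes in red, 4 other Mup probes in orange and 39 other probes in grey. Within the cluster the probes with large differences, from -5.84 to -4.67, alternate with probes near zero such as Mup2 and Mup5. The Mup2 and Mup5 probes were too faint to show a fall of that size.

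Outside the cluster, within 1000 kb of its ends, 35 probes of 28 genes or transcripts were tested. Their median difference was -0.25, and they ranged from -3.32 to 0.99. Of these 35, 8 probes of 7 genes or transcripts were lower by at least 1, against 10.7% of all tested probes, and 0 were lower by at least 5. Among the 8 were the 2 probes for Slc31a2 at -3.32 and -2.29, Ptgr1 at -2.18 and Dnajc25 at -2.02. These are larger than the measured differences of Mup17, Mup2 and Mup5, whose probes left little room for a fall. In the limma fit over 17362 genes (Benjamini-Hochberg adjusted p under 0.05), 31.1% of genes were called, 14.3% higher and 16.7% lower in stem cells. The share of calls that were higher was 46.2%, but 29.2% under normexp and 59.3% with the percentile taken over detected probes. A list of neighbours was written from knowledge of the region, so it leaves out some genes of the window, such as Ptgr1 and Dnajc25, and 16 of its 19 tested genes had a tested probe there. Of the 19, 3 fell, 0 rose and 16 did not pass, with a median of -0.24 against -0.01 over all genes. Slc31a2, a relative of the copper importer, read 1.71 and 1.67 in stem cells, against 3.87 and 4.09 in non-stem cell epithelia, and fell by 2.29 ± 0.16 (limma adjusted p = 0.000794). Slc31a1, the copper importer itself, fell by 1.24 ± 0.16 (limma adjusted p = 0.00492). Ugcg, which makes glucosylceramide, was not well above background in stem cells and was at least 1.95-fold lower there (limma adjusted p = 0.0352, from the signals without that limit). Its difference was -1.85, but -0.072 under normexp (limma adjusted p = 0.712), -1.11 without stem replicate 1 and -2.58 without stem replicate 2. It did not pass either under quantile normalization, with the percentile over detected probes or without a filter (limma adjusted p of 0.0745, 0.0563 and 0.12). Rgs3 did not pass, at -0.43 (limma adjusted p = 0.11). Without non-stem replicate 1, and again without non-stem replicate 2, 1 of the 3 calls was left, Slc31a2.

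Promoters of 6 members were found in the RefSeq table (build GRCm38.p6): Mup2, Mup6, Mup9, Mup17, Mup18 and Mup19. Each window of 300 bases, from 250 before the annotated start to 50 after it, held a TATATAA box, which begins 25 to 31 bases before the start. It is shown in capitals in 55-base stretches, to set members whose named probes had large and small differences side by side.
Mup6, chr4:60003417-60003471, plus strand: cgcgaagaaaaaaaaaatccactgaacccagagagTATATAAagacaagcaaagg
Mup19, chr4:61782236-61782290, minus strand: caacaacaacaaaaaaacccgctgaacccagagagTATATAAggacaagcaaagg
Mup9, chr4:60421964-60422018, minus strand: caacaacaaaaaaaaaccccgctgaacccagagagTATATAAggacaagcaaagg
Mup18, chr4:61674103-61674157, minus strand: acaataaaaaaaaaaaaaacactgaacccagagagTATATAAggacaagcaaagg
Mup17, chr4:61595838-61595892, and Mup2, chr4:60139864-60139918, minus strand: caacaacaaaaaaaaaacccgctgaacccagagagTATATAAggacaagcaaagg

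Pairs of these stretches shared 46 to 55 of 55 bases, and those of Mup2 and Mup19, whose probe differences were -0.32 and -5.80, shared 54. The Mup2 probe was too faint to show a difference of the size seen for Mup19. The Mup19 probe is also listed for Mup17, and Mup9 probe A_55_P1979904 for Mup2 but not for a current Mup9 entry. A probe's difference therefore cannot be assigned to 1 promoter. Searched on both strands of all 27025 promoter windows of the same length, TATATAA was found in 3.46%. The growth hormone responsive STAT5 motif TTCNNNGAA was found in 0 of the 6 windows and in 8.47% of all. No match says only that these letters are not in these windows.

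Genes known to act on the family in liver changed in both directions. Of 26 tested genes of a list of 33, 5 rose and 6 fell in stem cells and 15 did not pass, against the 31.1% of all genes called, and their median was 0.02. Foxa2, a forkhead factor of liver and gut epithelium, read -3.89 and -4.43 in stem cells, not well above background, and -0.01 and -0.31 in non-stem cell epithelia, so it was at least 4.91-fold lower (limma adjusted p = 0.000508, from the signals without that limit). Under normexp its difference was only -0.74, short of that bound, so the size of the fall depends on the background correction. Foxa2 passed under all 13 settings that gave it a value, but these draw on the same 4 arrays. It entered the test only through the non-stem arrays, and the filter on all 4 arrays left it out. Socs2, which restrains growth hormone signalling, fell by 1.24 ± 0.15 (limma adjusted p = 0.00419). The metabolic coactivator Ppargc1a rose by 1.14 ± 0.16 (limma adjusted p = 0.00594).

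Some receptors are named here after their values were seen. The prolactin receptor Prlr (-0.68) and the thyroid hormone receptor Thrb (-0.62) fell, with limma adjusted p of 0.0229 and 0.029. The growth hormone receptor Ghr did not pass, at 0.06 ± 0.16 (limma adjusted p = 0.796), and neither did Stat5a (-0.28), Stat5b (-0.11) and the glucocorticoid receptor Nr3c1 (0.10). The 11 calls of the list rest on both non-stem arrays: without non-stem replicate 1, 3 were left, and without non-stem replicate 2, 1, Foxa2.

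Other lipocalins did not pass. Of 7 tested genes of a list of 29, 0 passed by limma with adjustment, with a median of -0.16, and 2 had an unadjusted p under 0.05. Those were Lcn2, the iron-binding siderocalin, at 0.52 (limma adjusted p = 0.0626), and Lcn6 at 1.61 ± 0.61 (limma adjusted p = 0.1). Lcn6 moved with single arrays and was 2.58 without non-stem replicate 1 and 0.64 without non-stem replicate 2 (limma adjusted p of 0.0204 and 0.159). It passed under 6 of 13 settings, among them the replicate block (0.00656) and leaving out stem replicate 1 or 2 (5.76e-05 and 3.44e-06). The odorant-binding protein gene Obp1a was at -0.40 and the prostaglandin D synthase gene Ptgds at -0.28. Other settings called between 0 and 2 of the 7.

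Markers of several other cell types differed between the groups as well, and all counts stand against the 31.1% of all genes called. Of 18 tested acinar markers, the genes of saliva-secreting cells, 10 fell and 1 rose in stem cells, and their mean level was 5.92 and 5.98 on the stem cell arrays against 7.35 and 7.33. Bpifa2 (-4.55), Muc19 (-3.88) and Aqp5 (-3.19) were among those that fell, and Amy1, a salivary amylase, was the one that rose, by 4.09. Of 4 tested erythroid markers 4 fell, with mean levels of 0.70 and 1.09 against 3.43 and 3.64. Of 11 tested markers of granular convoluted tubules, the duct segment that makes kallikreins, 6 rose and 1 fell. Of 9 basal and myoepithelial markers 4 rose and 0 fell, with Krt14 at 3.17, and their mean levels were 3.86 and 3.87 against 2.60 and 2.70. Of 6 endothelial markers 4 rose and 0 fell, with mean levels of 0.45 and 0.33 against -1.36 and -1.51. Of 3 mast cell markers Kit and Tpsb2 rose, and Mrgprb1 was at least 28.0-fold lower in stem cells. Of 4 leukocyte markers 1 rose, of 2 fibroblast markers 1 rose, and of 7 general epithelial markers 5 rose and 1 fell. The part of these cells in the Mup values was not tested. Of 18 hepatocyte markers, 10 were well above background on 0 arrays, Alb, Apoa1, Apob, Fga and Fgb among them, while Apoa2 and Trf were above it on all 4. Of the 7 tested, 1 rose and 1 fell. The leukocyte and hepatocyte counts lie near the share of all genes called, and nothing is read from them.

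The genes nearest to the members' average profile were named by distance. For each of the 9 tested member probes the 4 levels were centred on their own mean and averaged, which gave -1.82 and -1.77 in stem cells, against 1.80 and 1.79 in non-stem cell epithelia. The 5 nearest named genes by Euclidean distance over the 4 arrays were Tcea3, an RNA polymerase elongation factor (distance 0.091), the transcription factor Etv1 (0.117), the tight junction claudin Cldn10 (0.139), the calcium channel Trpv6 (0.148) and the sialyltransferase St3gal1 (0.158). Their log2 differences lay between -3.72 and -3.44. No member had a difference of that size, since the average joins 5 large differences with 4 small ones. With 2 arrays per group such a distance reflects mainly the size of the group difference, and Etv1 and Cldn10 were in the acinar list above.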

How the data were processed

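Per the labels, total RNA of FACS-sorted cells was amplified, labelled with Cy3 and hybridised to one-colour Agilent arrays. The deposited scanner files hold spot intensity, background-corrected by Agilent Feature Extraction 10.7.3.1 per the file headers (the submitters' processing notes name 9.1, and this was not resolved). The authors' deposited series table holds log2 values centred per probe on an unknown baseline, with column medians of -0.27, -0.55 (stem cells), -0.83 and -0.75 (non-stem). Its differences between arrays correlated at 1 with the scanner values.

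Here, log2 intensity was shifted by each array's 75th percentile (stem cells 34.0 and 48.9, non-stem cells 84.2 and 71.1). Well above background were 35.7% to 42.3% of 59305 non-control spots, and 0 spots were saturated. All arrays shared 1 slide and scan. Spots of a probe were averaged, and a gene was its brightest tested probe. RefSeq accessions (GRCm38.p6) named 26582 probes, and 29099 kept the array's name. Coordinates of probes are on mm9, for which no annotation of exons was used here. Limma 3.58.1 in R 4.3.3 (lmFit, eBayes, two-sided, 5.46 degrees of freedom) was checked on simulated data, and 4 arrays limit its precision. Where a group was not well above background, the fold is a bound, for the reported background correction only.

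Members and lists were chosen with earlier results of these data known. Named were all Mup probes, up to 4 genes of smallest p per list, the 5 nearest profiles and markers. Some genes this rule names are not reported here. Probes in the cluster without a Mup name were added after their values were seen. Alternatives were quantile normalization, normexp (offset 50), the deposited values, a percentile over detected probes, other filters, a variance trend, a replicate block, means of probes and leaving out each array.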

Additional observations from a re-analysis of the deposited data

How the results depend on the processing

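Of all genes, 2488 were called higher and 2903 lower, so 46.2% of calls were higher. That share was 29.2% under normexp, with 4590 called lower, and 59.3% with the percentile over detected probes. That percentile moved the median over all genes to 0.13, and testing every probe without a filter moved it to 0.43. Without a filter 820 were called higher and 741 lower. Leaving out 1 array gave 590 to 3007 higher and 728 to 3593 lower, with the low counts without a non-stem array (870 and 961 without replicate 1, 590 and 728 without replicate 2). The median over the member probes, -5.48, became -4.08 under normexp, -5.34 with the percentile over detected probes, -3.72 without a filter and -5.66 over probes well above background on all 4 arrays. The Mup18 difference turned to 0.092 under normexp, the Mup2 difference to 0.25 under normexp and, leaving out 1 array, ranged from -0.69 to 0.054 (the latter without stem replicate 1), and that of Mup9 probe A_52_P402127 to -0.33 under quantile normalization. Of the regulators, 11 as reported, 1 was called without a filter and 1 to 12 when leaving out 1 array. Of the lipocalins, 0 as reported, 1 was called under quantile normalization, normexp, the percentile over detected probes, the filter on all 4 arrays, the replicate block and the mean of a gene's probes, 2 with an intensity trend, and 0 to 1 when leaving out 1 array. Of the neighbours, 3 as reported, 5 were called under normexp and 5 with a trend, 1 without a filter, and 1 to 4 when leaving out 1 array. The cause was not tested, beyond the larger number of tests without a filter and fewer arrays when 1 is left out.

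Same-numbered arrays deviated from their group means with a correlation of -0.10 over 17362 genes, and the labels do not say that a number is shared. With the replicate block 2370 genes were called higher and 2915 lower, with 9 regulators and 3 neighbours. The crossed pairing, added after the data were seen, gave 2049 higher and 2367 lower. With an array left out, a lone sample is assumed to vary like the other group.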
